A study of Mus musculus with 6 samples.

Results

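The imprinted growth genes described here are 10 genes, *Igf2*, *H19*, *Meg3*, *Dlk1*, *Peg3*, *Plagl1*, *Mest*, *Cdkn1c*, *Grb10* and *Ndn*, taken by name from the 54532 genes of the count table. Each name matched 1 gene, so all 10 were found. The rule used names alone and no measured value, but the 10 genes were chosen with earlier results of these data known. Imprinted genes are read mainly from 1 parental copy, and which copy is silent depends on DNA methylation set in the egg or sperm. Many of them control fetal growth, those read from the father's copy mostly promoting it and those read from the mother's copy mostly restraining it. In mice their RNA is abundant before birth and is known to decline in many organs as body growth slows in the first weeks of life. Growth plates and rib cartilage are where the skeleton lengthens, so cartilage at 1 month of age is a late point in this decline.

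RNA was sequenced from *Gli1*-CreERT2; tdTomato mice (strain background c57BL/6), 1 month old and taken 24 h after tamoxifen (TAM). In these mice the *Gli1* locus drives a recombinase that needs TAM, and its action switches on the red protein tdTomato. After cells marked by CD45 (leukocytes), CD31 (endothelium) or Ter119 (erythroid cells) had been set aside, cells were sorted into Tdtomato+ (Gli1+, 3 libraries) and Tdtomato- (Gli1-, 3 libraries). All mice carried both alleles and had TAM, so Gli1- cells are every other cell past the gate, including any *Gli1*-expressing cell in which the recombinase did not act. The labels name the growth plate and chondrogenic cells as the source, while the study's text names costal cartilage. According to the study, each mouse sample was sorted into both populations. The libraries of each population are numbered as replicates 1, 2 and 3. Libraries of the same number are taken as pairs below, although the labels do not state that they share mice. Whether a library came from 1 mouse or from pooled mice is not given in the sources used here. No other age is in this series, so the decline itself could not be measured, and the data show which imprinted genes were still detected at 1 month and how the populations compared.

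Library totals lay between 17114101 and 18602482 counts, and *Gli1* held 86 to 152 counts in Gli1+ libraries and 14 to 46 in Gli1- libraries. Gli1+ replicate 1 had a count on 15000 genes, against 20666 to 23360 in the others. Levels are given as CPM, read counts relative to the library total after TMM scaling, which corrects for library composition. Summed chondrocyte markers (15 of 15 tested) lay at 9436 to 28199 CPM in Gli1+ and 8183 to 37354 CPM in Gli1- libraries, led by *Col2a1*, and were highest in replicate 2 of both populations. Fibroblast markers, which belong to cells that could share the gate, lay at 1857 to 4260 CPM in Gli1+ and 2355 to 10368 CPM in Gli1- libraries. Their highest library was again Gli1- replicate 2, and 13 of 14 had a log2FC below 0 (median -1.07). In replicate 1, though, their sum was higher in Gli1+ (3099 CPM) than in Gli1- cells (2355 CPM). Of the chondrocyte markers 11 of 15 were below 0 (median -0.24), as were 5 of 5 neutrophil and 3 of 3 macrophage markers tested. Neutrophil markers reached 3103 CPM in Gli1- replicate 1 and lay between 9.40 and 72.3 CPM in the other libraries, and macrophage markers reached 730 CPM there and lay between 23.6 and 161 CPM elsewhere. Endothelial markers lay at 2.39 to 3.15 CPM in Gli1+ and 4.02 to 14.0 CPM in Gli1- libraries. Over all libraries, skeletal muscle markers lay between 4.04 and 40.0 CPM, adipocyte markers between 7.94 and 51.6 CPM with *Lep* at 0, osteoblast markers between 17.6 and 55.6 CPM, lymphocyte markers between 0 and 5.22 CPM and erythroid markers between 0 and 19.1 CPM. In sorted populations, fewer cells of a type and less RNA per cell cannot be told apart.

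Of the 10 imprinted genes, 9 were well detected in all 6 libraries, and *Igf2* was the exception. The 9 held at least 75 counts in every library, and each had a mean level above the median of the 14801 genes tested, which was 14.8 CPM. *Meg3* was the most abundant by reads, with a mean of 459 CPM over the 6 libraries and 97.8% of tested genes below it. *Plagl1* followed at 290 CPM, *Grb10* at 199 CPM and *Peg3* at 164 CPM. *H19*, *Dlk1*, *Cdkn1c*, *Ndn* and *Mest* lay at 88.2, 81.0, 50.1, 37.7 and 24.8 CPM.

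Because the genes differ in length, their levels were compared per kilobase of gene model. *Plagl1* (37.1 CPM per kilobase) and *H19* (35.8) came first, followed by *Meg3* (25.4), *Cdkn1c* (24.6), *Grb10* (21.9), *Dlk1* (14.3), *Peg3* (12.3), *Ndn* (10.2) and *Mest* (6.30). Within this order every pair of neighbours down to *Ndn* and *Mest* overlapped in the range of their libraries, and the upper gene was the higher one in only 2 to 4 of 6 libraries, so neighbours among these 9 did not separate beyond their spread. Farther apart in the order, the lowest *Plagl1* library (25.2 CPM per kilobase) lay above the highest libraries of *Dlk1* (24.8), *Peg3* (21.5), *Ndn* (18.8) and *Mest* (14.3). *Igf2* came last at 0.106 CPM per kilobase and lay below *Mest* in 6 of 6 libraries without overlap. The order by length also held wide ranges within a gene, since *Cdkn1c* ran from 1.93 to 91.1 CPM per kilobase and *Plagl1* only from 25.2 to 67.5.

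**Figure D1:**
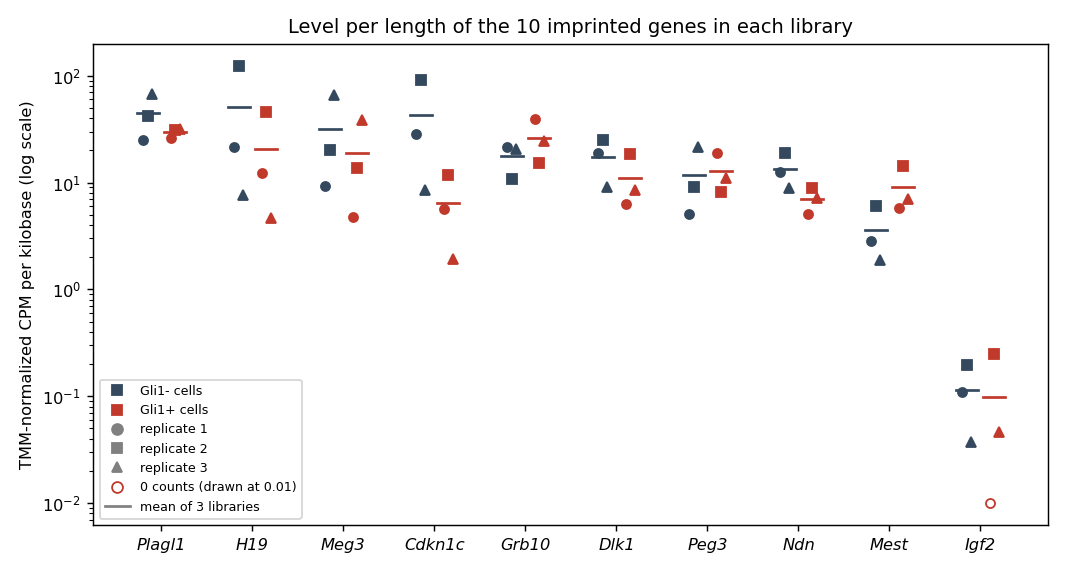
Level of each of the 10 imprinted genes per kilobase of gene model (TMM-normalized CPM, log axis) in each library, with Gli1- libraries in dark blue, Gli1+ libraries in red, marker shapes for the replicate number and bars for the mean of 3 libraries. The genes from *Plagl1* to *Mest* overlap with their neighbours, whereas *Igf2* lies between 0 (open circle) and 0.247 CPM per kilobase.

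Across the 14801 genes tested, edgeR's quasi-likelihood test called 0 genes (0%) and 0 of the 10 imprinted genes, a call needing an adjusted p under 0.05 and a |log2FC| over 1. *Gli1*, whose locus drives the label, was not called either, at a log2FC of 2.09 (standard error 0.68, unadjusted p = 0.0152, adjusted p = 0.9999). A lack of calls is therefore no sign of equal levels. Every imprinted gene had an adjusted p of 0.9999 in this test. At an unadjusted p under 0.05 it listed 514 genes (3.47%), with 212 (1.43%) on the Gli1+ side and 302 (2.04%) on the Gli1- side, and 1 imprinted gene, *Cdkn1c*. DESeq2's Wald test called 30 genes and 0 of the 10, and limma-voom called 0 genes. Of the 10, 3 had a log2FC above 0 and 7 one below, with a median of -0.63, while 50.1% of all tested genes were above 0 and their median was 0.0013. Without Gli1- replicate 2 the median of the 10 was -0.22.

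With the replicate number as a block, edgeR still called 0 genes, with an unadjusted p under 0.05 for 1274 genes (8.61%). Among the imprinted genes this was so for 5 of 10, namely *Cdkn1c*, *Mest*, *H19*, *Meg3* and *Ndn*. Pairs here and below rest on the replicate numbers alone. Across genes, Gli1+ replicate 1 correlated slightly more with Gli1- replicate 3 (0.274) than with Gli1- replicate 1 (0.223). Counted by such pairs, 5 of 10 (*Cdkn1c*, *H19*, *Meg3*, *Dlk1* and *Ndn*) were lower in Gli1+ than in Gli1- cells in 3 of 3, against 19.9% of all genes tested. Higher in 3 of 3 were 2 (*Mest* and *Grb10*), against 17.6%. The other 3 had mixed pairs. Blocking by replicate number in DESeq2 gave calls for 2 of the 10, *Mest* among the 0.777% of genes called higher and *Cdkn1c* among the 2.11% called lower. In DESeq2 11.7% of all genes had an unadjusted p under 0.05 with the block, against 4.84% without it.

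**Figure D2:**
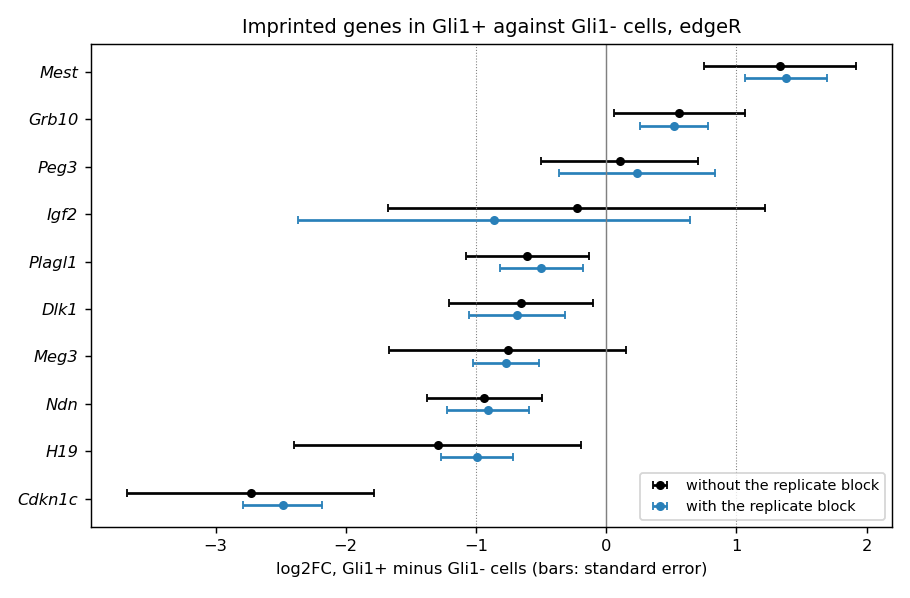
Log2FC of the 10 imprinted genes between Gli1+ and Gli1- cells (horizontal axis, values above 0 are higher in Gli1+ cells) from edgeR, without (black) and with (blue) the replicate number as a block; bars are standard errors and dotted lines mark a log2FC of -1 and 1. *Cdkn1c* lies farthest to the left at -2.73 and *Mest* farthest to the right at 1.33, and the standard error of *H19* is 1.10 without the block and 0.28 with it.

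Among the genes read from the mother's copy, *Cdkn1c* (ENSMUSG00000037664, chromosome 7, 143458339 to 143461050, minus strand, GRCm38) had the lowest log2FC of the 10. It encodes p57, an inhibitor of cyclin-dependent kinases that is needed for growth plate chondrocytes to leave the cell cycle. Gli1+ replicates 1, 2 and 3 held 11.5, 24.01 and 3.94 CPM, and Gli1- replicates 1, 2 and 3 held 58.3, 186 and 17.4 CPM. The populations overlapped, since Gli1+ replicate 2 lay above Gli1- replicate 3, but within each pair the Gli1+ library was the lower one. By pair the log2 difference was -2.35, -2.95 and -2.14. In edgeR the log2FC was -2.73 (standard error 0.95, unadjusted p = 0.0203, adjusted p = 0.9999), with a mean of 13.1 ± 10.1 CPM in Gli1+ cells against 87.1 ± 87.8 CPM in Gli1- cells (SD, n = 3 each).

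In DESeq2 with the block, *Cdkn1c* was called at -2.50 on the log2 scale (adjusted p = 6.83e-09). In edgeR with the block its log2FC was -2.48 (standard error 0.30, unadjusted p = 0.000274, adjusted p = 0.307), and it was not called. *Cdkn1c* was also called in edgeR without a filter on low counts, where 0.866% of genes were called lower. There, standard errors were alike for *Cdkn1c* (0.57), *H19* (0.54) and the imprinted gene *H13* (0.56), against 0.95, 1.10 and 0.38 with the filter. That call therefore did not follow the spread of *Cdkn1c* between libraries. DESeq2 with the block and without both replicate 1 libraries called *Cdkn1c* too, among 5.09% of genes. That last fit, added after seeing the data, held only replicates 2 and 3 of each population. It gave the lowest adjusted p of *Cdkn1c* among all the alternatives, 9.50e-17, and the span reached 1.0. Leaving out single libraries gave a log2FC between -3.52 and -1.57, the latter without Gli1- replicate 2, which had by far the highest *Cdkn1c* level and also the highest chondrocyte and fibroblast marker levels; their part in the difference was not tested. Of the exonic bases of *Cdkn1c*, 30.7% are shared with an antisense gene, Gm44732, which held 0 counts in every library.

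*H19*, a non-coding RNA of the maternal copy that restrains growth (ENSMUSG00000000031, chromosome 7, 142575529 to 142578143, minus strand), varied widely between libraries. Gli1+ replicates 1, 2 and 3 held 30.1, 112 and 11.4 CPM, and the Gli1- replicates held 53.1, 304 and 18.6 CPM. Replicate 2 was thus the highest and replicate 3 the lowest in both populations, with a range of 9.82-fold within Gli1+ and 16.3-fold within Gli1- cells. Within each pair the Gli1+ library was lower, by a log2 difference of -0.82, -1.44 and -0.71. The log2FC was -1.29 (standard error 1.10, unadjusted p = 0.274) in edgeR and -0.99 (standard error 0.28, unadjusted p = 0.0139, adjusted p = 0.453) with the replicate block. Without Gli1- replicate 2 it turned to 0.48. With DESeq2's block and no replicate 1 libraries *H19* was called at -1.10 (adjusted p = 0.000681, the lowest of a span that reached 1.0). That fit, added after seeing the data, held only replicates 2 and 3 of each population.

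An exon of *H19* holds the hairpin of miR-675, a microRNA cut from the transcript itself, so its sequence lies inside the RNA counted here. *Meg3* exons hold miR-770 in the same way, while miR-335 lies in an intron of *Mest*. The libraries were made from poly-A RNA and measure the host genes, not the mature microRNAs. Their RefSeq sequences (GRCm38.p6) follow with the seed, bases 2 to 8, in capitals, and none of the 6 seeds is shared.
miR-675-5p: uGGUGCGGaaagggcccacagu
miR-675-3p: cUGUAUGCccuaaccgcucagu
miR-770-5p: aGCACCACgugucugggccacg
miR-770-3p: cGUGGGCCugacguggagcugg
miR-335-5p: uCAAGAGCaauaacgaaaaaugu
miR-335-3p: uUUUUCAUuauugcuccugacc

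*Meg3*, the maternally read non-coding RNA of the *Dlk1* locus (ENSMUSG00000021268, chromosome 12, 109541001 to 109571726, plus strand), also varied widely between libraries, but in another order. Gli1+ replicates 1, 2 and 3 held 85.7, 249 and 689 CPM, and the Gli1- replicates held 166, 366 and 1197 CPM. Replicate 3, where *H19* was lowest, was the highest for *Meg3* in both populations, and replicate 1 the lowest. The pairs gave a log2 difference of -0.96, -0.56 and -0.80. The log2FC was -0.76 (standard error 0.91, unadjusted p = 0.429) in edgeR, and -0.77 (standard error 0.25, unadjusted p = 0.0249, adjusted p = 0.503) with the replicate block. Without Gli1- replicate 3 it was 0.36.

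*Rian*, a further maternally read non-coding RNA 32.2 kb from *Meg3*, showed the same order of replicates, at 73.4, 192 and 228 CPM in Gli1+ and 94.7, 244 and 384 CPM in Gli1- replicates 1, 2 and 3. *Mirg*, named after its values were seen, lies beyond *Rian* and again had replicate 3 highest and replicate 1 lowest in both populations. Over the 10 imprinted genes, the same replicate number was highest in both populations for 9, against 57.1% of all genes tested. Replicate 2 was highest for 6 of them (*Igf2*, *H19*, *Dlk1*, *Mest*, *Cdkn1c* and *Ndn*), replicate 3 for *Meg3* and *Plagl1*, and replicate 1 for *Grb10*. Replicate 2 of both populations also had the highest chondrocyte marker sum, at 28199 and 37354 CPM against 8183 to 10541 CPM in the other 4 libraries, and the highest mitochondrial share, at 1.68% and 1.87% of counts against 0.347% to 1.06%. The part of these in the gene levels was not tested.

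**Figure D3:**
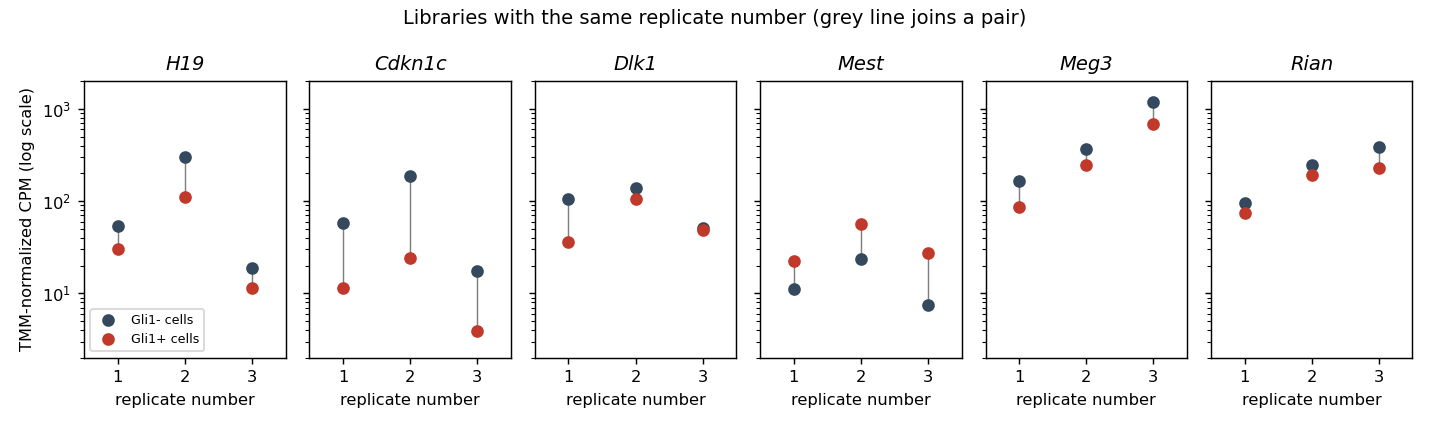
TMM-normalized CPM (log axis) of *H19*, *Cdkn1c*, *Dlk1*, *Mest*, *Meg3* and *Rian* by replicate number, in Gli1- (dark blue) and Gli1+ (red) libraries, with a grey line joining the libraries of 1 number. *H19* is highest in replicate 2 (112 and 304 CPM) and *Meg3* in replicate 3 (689 and 1197 CPM), and in each pair of *Cdkn1c* the Gli1- library is above the Gli1+ library, while for *Mest* it is below.

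The start of *Meg3* is shown because its promoter holds a cAMP response element, the letters TGACGTCA read alike on both strands, 57 bases before the start. *Peg3* holds the same letters 178 bases before its start and, without overlap, the palindrome GGGGCCCC of the factor PLAGL1, itself 1 of the 10 genes, 201 bases before. Of 32851 promoters of this length in the RefSeq table (GRCm38.p6), 1.55% hold the first motif and 0.889% the second. Of the 10 genes 8 were in that table, with 15 starts in all, and *H19* and *Cdkn1c* were not. No other of the 15 starts held either motif. A match is a description of the letters, and binding was not measured. The 250 bases before the start of *Meg3*, chr12:109540746-109540995 on the plus strand (GRCm38.p6), overlap no annotated exon and are given from 5′ to 3′ with the motif in capitals.
Meg3: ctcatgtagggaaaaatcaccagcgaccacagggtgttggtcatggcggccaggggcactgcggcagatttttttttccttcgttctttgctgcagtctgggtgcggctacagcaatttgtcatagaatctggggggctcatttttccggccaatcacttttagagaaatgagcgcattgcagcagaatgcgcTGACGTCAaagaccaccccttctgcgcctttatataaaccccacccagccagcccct

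*Grb10* is the remaining gene of the maternal group and encodes an adaptor that restrains insulin and IGF receptor signalling (in most tissues read from the mother's copy; ENSMUSG00000020176, chromosome 11, 11930508 to 12038683, minus strand). It stood apart from the other maternal genes, with values on the Gli1+ side. Its levels were 355, 137 and 220 CPM in Gli1+ replicates 1, 2 and 3, and the Gli1- replicates held 197, 97.8 and 188 CPM. The Gli1+ library was the higher one in 3 of 3 pairs, although the populations overlapped. The log2FC of 0.56 was close to its standard error, 0.50 (edgeR, unadjusted p = 0.296), and without Gli1+ replicate 1 it was 0.12.

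Among the genes read from the father's copy, *Mest* (ENSMUSG00000051855, chromosome 6, 30723547 to 30748465, plus strand) had the highest log2FC of the 10. It encodes an enzyme-like protein of the alpha/beta hydrolase fold, abundant in embryonic mesoderm, and its loss in mice reduces growth. *Mest* stood at 22.5, 56.5 and 27.7 CPM in Gli1+ replicates 1, 2 and 3, and the Gli1- replicates held 11.2, 23.7 and 7.46 CPM. Only Gli1- replicate 2 reached into the Gli1+ range, and every pair was higher in Gli1+ cells, with a log2 difference of 1.01, 1.25 and 1.89. Gli1+ cells averaged 35.6 ± 18.3 CPM and Gli1- cells 14.1 ± 8.49 CPM (SD, n = 3 each). The log2FC in edgeR was 1.33 (standard error 0.58, unadjusted p = 0.0515, adjusted p = 0.9999). With the replicate block it was 1.38 (standard error 0.32, unadjusted p = 0.00582, adjusted p = 0.381).

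*Mest* was called by DESeq2 with the block at 1.37 on the log2 scale (adjusted p = 0.0183). Across the alternatives its adjusted p-values ran from 9.90e-06, in the same test without both replicate 1 libraries, to 1.0. The fit without replicate 1, added after seeing the data, held only replicates 2 and 3 of each population. With each library left out in turn the log2FC lay between 0.82, without Gli1+ replicate 2, and 1.90, without Gli1- replicate 2. At its end *Mest* runs into the oppositely read gene *Copg2*, which shares 23.1% of the exonic bases of *Mest*, and whether strand was used in counting is not stated. *Copg2* held 134 to 346 counts and had a log2FC of 0.02 (standard error 0.57).

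The promoter of *Mest* is given because imprints are written as methylation of CG pairs and this window holds 14 of them, against a median of 6 over all promoters of this length. Of those promoters 70.6% hold fewer, and the richest starts of *Grb10*, *Igf2* and *Plagl1* hold more (40, 22 and 19). The *Mest* window is the 250 bases before the second of 3 listed starts, chr6:30737800-30738049 on the plus strand (RefSeq, GRCm38.p6), from 5′ to 3′ with CG pairs in capitals. Methylation was not measured in these samples.
Mest: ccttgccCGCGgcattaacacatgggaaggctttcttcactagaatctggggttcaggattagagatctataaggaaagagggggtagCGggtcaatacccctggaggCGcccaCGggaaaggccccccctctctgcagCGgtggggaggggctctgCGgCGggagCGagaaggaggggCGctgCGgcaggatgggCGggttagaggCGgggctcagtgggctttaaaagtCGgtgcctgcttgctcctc

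*Ndn* encodes necdin, a protein that restrains the cell cycle in differentiating cells (ENSMUSG00000033585, chromosome 7, 62346569 to 62350262, plus strand). It was the only 1 of the 10 in which the populations did not overlap, with all Gli1+ libraries below all Gli1- libraries, an arrangement found in 4.45% of all genes tested (and the opposite one in 4.04%). Gli1+ replicates 1, 2 and 3 held 18.6, 32.7 and 26.3 CPM, and the Gli1- replicates held 46.2, 69.6 and 32.9 CPM. The gap was narrow, since Gli1+ replicate 2 and Gli1- replicate 3 were nearly level. The log2FC was -0.94 (standard error 0.44, edgeR, unadjusted p = 0.0666), with -1.16 to -0.64 as the range when single libraries were dropped.

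*Dlk1*, which encodes a membrane protein related to Notch ligands (ENSMUSG00000040856, chromosome 12, 109452823 to 109463336, plus strand), had values on the Gli1- side. In Gli1+ replicates 1, 2 and 3 it held 35.9, 104 and 48.5 CPM, and the Gli1- replicates held 106, 140 and 51.1 CPM. The pairs differed in size, with a log2 difference of -1.56 in the first and only -0.07 in the third. The log2FC was -0.66 (standard error 0.55, edgeR, unadjusted p = 0.270), and it was -1.24 without Gli1+ replicate 2, -0.40 without Gli1+ replicate 1 and -0.36 without Gli1- replicate 2.

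*Plagl1* and *Peg3* encode zinc-finger transcription factors of the father's copy, and *Plagl1* is known to regulate other imprinted genes. *Plagl1* (ENSMUSG00000019817, chromosome 10, 13060504 to 13131694, plus strand) held 203, 241 and 245 CPM in Gli1+ replicates 1, 2 and 3, and 197, 326 and 528 CPM in the Gli1- replicates. It was the steadiest of the 10 within Gli1+ cells, with a range of 1.21-fold, whereas Gli1- replicate 3 stood high. Its log2FC was -0.61 (standard error 0.47, unadjusted p = 0.233, edgeR), and -0.19 without that library. *Peg3* (ENSMUSG00000002265, chromosome 7, 6703892 to 6730431, minus strand) held 251, 109 and 148 CPM in Gli1+ replicates and 67.7, 120 and 286 CPM in Gli1- replicates. Its pairs pointed both ways, with a log2 difference of 1.89, -0.14 and -0.95, and the log2FC was 0.10 (standard error 0.60, unadjusted p = 0.870, edgeR). Leaving out single libraries moved it between -0.31, without Gli1+ replicate 1, and 0.85, without Gli1- replicate 3.

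*Igf2*, the fetal growth factor of the father's copy (ENSMUSG00000048583, chromosome 7, 142650766 to 142666816, minus strand), was close to the limit of detection. Gli1+ replicates 1, 2 and 3 held 0, 23 and 5 counts, and the Gli1- replicates held 12, 17 and 4 counts. The library at 0, Gli1+ replicate 1, had a count on only 15000 genes, against 20666 to 23360 in the others. The part of this in its 0 was not tested. The 2-sided 95% exact Poisson interval, which covers counting error only, reached 3.69 counts or 0.195 CPM for the library at 0, and ran from 0.895 to 2.12 CPM for the highest library, Gli1+ replicate 2. Of tested genes, 2.53% had a lower mean. The log2FC was -0.23 with a standard error of 1.45 (unadjusted p = 0.879, edgeR), so no difference was detectable at this depth, and its sign turned in 4 of the alternatives.

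*Igf2* lies 72.6 kb from *H19*, and both share enhancers while being read from opposite parental copies. Per length, *H19* was 84.5 to 593 times the level of *Igf2* in the 5 libraries with *Igf2* counts (with 1 count added to each gene). The log2 ratio of *Igf2* to *H19* averaged -8.08 ± 2.06 (SD, n = 3) in Gli1+ and -8.03 ± 1.03 (SD, n = 3) in Gli1- cells, a difference within the spread (2-sided exact permutation test, p = 0.9, where 3 against 3 cannot go below 0.1). The Gli1+ mean includes replicate 1, whose ratio of -10.37 was set by the added count, and without that library the difference was 1.10. Of the exonic bases of *Igf2*, 62.8% (3596 of 5723) are also annotated to Gm49394, a gene on the same strand with 0 counts in every library. The counting tool named in the submitters' notes leaves out reads that fall on 2 genes unless told otherwise, its setting is not given in the sources used here, and the part of this in the low counts was not tested.

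The second such locus pairs *Dlk1* with *Meg3*, 77.7 kb apart. Its ratio differed by replicate number, and *Meg3* per length was 7.32 times *Dlk1* in Gli1- replicate 3 and 4.44 times in Gli1+ replicate 3, but 0.490 to 0.818 times in the other 4 libraries. The log2 ratio of *Dlk1* to *Meg3* was -0.43 ± 1.49 (SD, n = 3) in Gli1+ and -0.52 ± 2.07 (SD, n = 3) in Gli1- cells (2-sided exact permutation test, p = 0.8). Both genes were lower in Gli1+ cells in 3 of 3 pairs, and the difference in their ratio lay within the spread of the libraries.

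The wider set of imprinted genes was examined with a list of 46 others, of which 37 were tested and 9 had too few counts, with a mean of at most 0.638 CPM. EdgeR called 0 of the 37, 15 had a log2FC above 0 and 22 one below, and their median was -0.094. At an unadjusted p under 0.05 there were 2, *Slc38a4* and *Asb4*, next to 3.47% of all genes. The most abundant of the list were *Rian* (described above), *Cd81*, *H13*, *Igf2r* and *Gnas*. *Igf2r*, the receptor that clears IGF2, averaged 142 ± 71.2 CPM on the Gli1+ side and 171 ± 69.4 CPM on the Gli1- side (SD, n = 3 each), with a log2FC of -0.27 (standard error 0.52). *Gnas*, which encodes the stimulatory G protein subunit that transmits PTHrP signals in the growth plate, held 14.7, 137 and 88.1 CPM in Gli1+ and 122, 206 and 112 CPM in Gli1- replicates 1, 2 and 3, lower in 3 of 3 pairs. Its log2FC was -0.88 (standard error 0.72), or -0.40 without Gli1+ replicate 1 and -1.52 without Gli1+ replicate 2. *Cd81*, a tetraspanin, and *H13*, a signal peptide peptidase, had log2FC values of -0.23 (standard error 0.72) and -0.18 (standard error 0.38).

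*Slc38a4*, an amino acid transporter known for its role in placental growth, held 28.7, 12.3 and 8.46 CPM in Gli1+ and 5.79, 5.84 and 3.49 CPM in Gli1- replicates 1, 2 and 3. The lowest Gli1+ library exceeded the highest Gli1- library, and the log2FC was 1.71 (standard error 0.60, unadjusted p = 0.0214, edgeR), or 1.02 without Gli1+ replicate 1. *Asb4*, a SOCS-box protein of the mother's copy, held 0.212, 1.04 and 1.31 CPM in Gli1+ and 3.36, 4.71 and 7.51 CPM in Gli1- replicates. Even the highest Gli1+ library stayed under the lowest Gli1- library, with a log2FC of -2.59 (standard error 0.84, unadjusted p = 0.0143, edgeR). Of the 37, 1 lay wholly higher in Gli1+ cells, against 4.04% of all genes tested. Wholly lower were 2, *Asb4* and, named after its values were seen, *Trappc9*, against 4.45% of all genes. With the block, DESeq2 called 3 of the 37. *Slc38a4* was among the 0.777% of all genes called higher, and *Asb4* and, named after its values were seen, the splicing factor gene *Zrsr1* were among the 2.11% called lower.

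**Figure D4:**
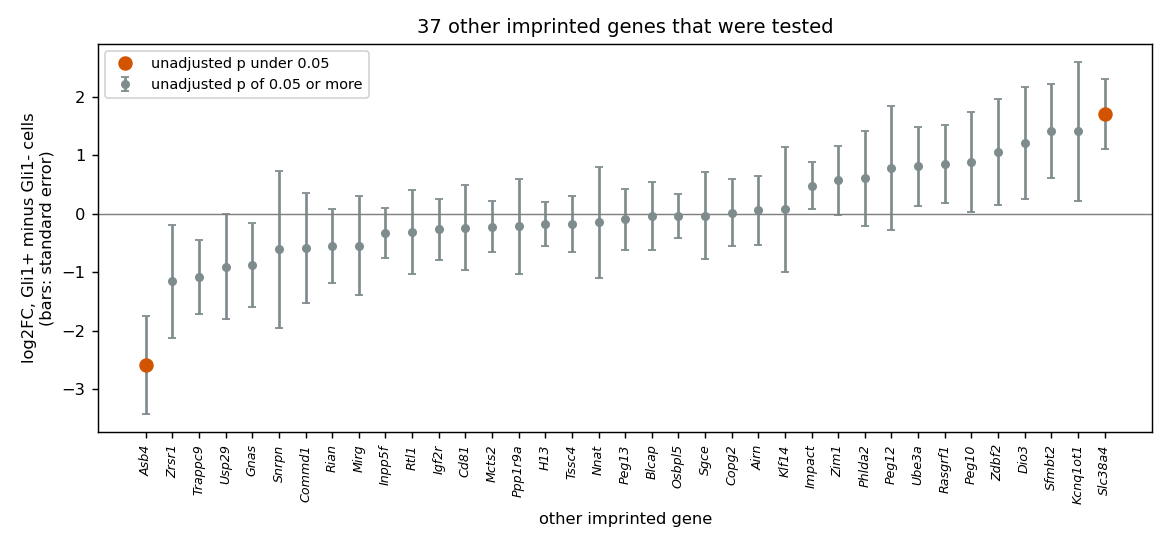
Log2FC (vertical axis, values above 0 are higher in Gli1+ cells) of the 37 other imprinted genes tested, sorted, from edgeR without the replicate block; bars are standard errors and orange points mark an unadjusted p under 0.05. *Asb4* at -2.59 and *Slc38a4* at 1.71 are at the ends of the order, and most standard errors reach 0.

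Genes outside imprinting that are known to decline with juvenile growth were also read, from a list of 9 of which 6 were tested, 0 of them called by edgeR. *Lin28b*, *Mycn* and *Igf2bp1* had too few counts to test. *Hmga2*, a chromatin protein of growing tissue, was well detected, at 522, 160 and 213 CPM in Gli1+ and 223, 99.7 and 176 CPM in Gli1- replicates 1, 2 and 3. In 3 of 3 pairs the Gli1+ library was above its partner, at a log2FC of 0.84 (standard error 0.57) that dropped to 0.14 without Gli1+ replicate 1. *Ezh2*, the enzyme that methylates histone H3 in Polycomb silencing, held 21.2, 13.5 and 11.7 CPM in Gli1+ and 5.59, 8.02 and 9.10 CPM in Gli1- replicates. All Gli1+ libraries were higher, as in 4.04% of all genes tested, and the log2FC was 1.03 (standard error 0.48, unadjusted p = 0.0638, edgeR).

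On the other side stood *Igf2bp2*, which encodes an RNA-binding protein that binds *Igf2* mRNA. It held 63.4, 30.6 and 19.2 CPM in Gli1+ and 95.7, 72.5 and 92.5 CPM in Gli1- replicates 1, 2 and 3. The populations were again apart, Gli1+ being lower, as in 4.45% of all genes tested. The log2FC was -1.20 (standard error 0.50, unadjusted p = 0.0431, edgeR). With the block, DESeq2 called it at -1.38 (adjusted p = 0.0464). The same test without both replicate 1 libraries, added after seeing the data, held only replicates 2 and 3 of each population. There the adjusted p of *Igf2bp2* was 2.33e-07, the lowest of a span that reached 1.0. Its relative *Igf2bp3*, named after its values were seen, was low but also separated, at 0.683 to 1.04 CPM in Gli1+ and 2.38 to 2.65 CPM in Gli1- libraries. *E2f3*, an activating cell cycle factor, and *Gpc3*, a cell surface proteoglycan that restrains growth, had log2FC values of 0.37 (standard error 0.49) and 0.14 (standard error 1.05).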

How the data were processed

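Gene counts deposited by the authors, 1 column per library, were used as given, without normalization. The submitters' processing notes list HISAT2 2.0.5, featureCounts 1.5.0-p3 and mm10; strand setting and annotation are not given in the sources used here. GENCODE M21 (GRCm38) holds 54409 of the 54532 genes, 98.3% of them at identical coordinates. Unused columns of per-sample values numbered 0.

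Genes were filtered with filterByExpr (minimum count of 10), scaled by TMM and tested with edgeR 4.0.16's quasi-likelihood test (R 4.3.3, legacy fit) without a block, with Benjamini-Hochberg adjustment over 14801 genes. Fits were also run on simulated counts that held no replicate effect, so this run could not test how the blocked fits handle such an effect. Alternatives used DESeq2 1.42.0, limma 3.58.1, other scalings and filters, a newer edgeR fit, the adjusted p alone, the replicate block, left-out libraries and, for the locus ratios, other pseudocounts and no division by length; the fits without both replicate 1 libraries, and the count of unadjusted p-values with the block, were added after seeing the data.

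The 10 genes, the lists and the naming rule (all 10 genes, and of the other lists the 5 most abundant and any with an unadjusted p under 0.05) were chosen with earlier results of these data known. According to the study each mouse sample was sorted into both populations. Deviations of same-numbered libraries correlated across genes at 0.223, 0.720 and 0.471, and numbers were taken as pairs on this and the study's statement; Gli1+ replicate 1 correlated slightly more with Gli1- replicate 3 (0.274) than with its own number. With the filter, all libraries and no block, edgeR's p-values measure the spread between 3 libraries per population, which the study calls biological replicates.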

Additional observations from a re-analysis of the deposited data

How the results depend on the processing

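Of the 10 imprinted genes, edgeR called 0 with DESeq2-style scaling, library totals only, the newer fit, a minimum count of 30 (9 tested), the adjusted p alone or the replicate block, or when single libraries were dropped (0 to 0). DESeq2 with the replicate block called 2, the same test without both replicate 1 libraries 3, and edgeR without a filter 1. Over all genes these gave 428, 781 and 267 calls, and DESeq2 without the block gave 30. With the replicate block DESeq2 called 3 of the other imprinted genes (3 without replicate 1) and 1 of the juvenile growth list (1 without replicate 1), and the block in edgeR changed no call. The median log2FC of the 10 lay between -0.90 and -0.22 with single libraries left out. Single log2FC values turned sign only where libraries were left out. Without both replicate 1 libraries, *Igf2* was at 0.31, *Peg3* at -0.56 and *Gpc3* at -0.42. With 1 library left out the ranges were -2.25 to 0.38 for *Igf2*, -2.61 to 0.48 for *H19*, -1.79 to 0.36 for *Meg3*, -0.31 to 0.85 for *Peg3*, -1.18 to 0.37 for *Cd81*, -0.78 to 0.023 for *Igf2r*, -0.039 to 0.60 for *E2f3* and -0.53 to 1.69 for *Gpc3*. The difference in the log2 ratio of *Igf2* to *H19* was -0.05, turned to 0.70 with a pseudocount of 10 counts, and lay between -0.89 and 1.10 with 1 library left out; that of *Dlk1* to *Meg3* was 0.08 and lay between -1.09 and 0.94. Pairs of the same number (replicate block) and counts not divided by length gave the same differences for both ratios. The arithmetic fixes this in advance, so these 2 settings are no check. The causes were not tested. With 3 libraries a population and ranges of up to 16.3-fold within one, precision rested on few libraries, and *Igf2* held only 0 to 23 counts.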

Other observations

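Genes that set, keep or remove DNA methylation at imprints were read from the same fit, with a list chosen after seeing the data. Of 13, 11 were tested and edgeR called 0, with 8 of 11 above 0, against 50.1% of all genes tested, and a median log2FC of 0.19. *Tet2* and *Tet3*, which oxidise methylated DNA, were 2 of the 3 below 0, at -0.74 (standard error 0.45) and -0.56 (standard error 0.74). Both were lower in Gli1+ cells in 3 of 3 pairs, as were 19.9% of all genes tested. *Zfp57*, a zinc-finger protein that guards methylated imprints, averaged 25.6 ± 0.749 CPM on the Gli1+ side and 25.5 ± 5.52 CPM on the Gli1- side (SD, n = 3 each), a log2FC of 0.01 with a standard error of 0.38. *Zfp445* and *Dnmt3b*, of the same list, had log2FC values of 0.90 (standard error 0.62) and 0.95 (standard error 0.80). Both were higher in Gli1+ cells in 3 of 3 pairs, against 17.6% of all genes tested. *Uhrf1*, which brings the maintenance methylase to newly copied DNA, was at 7.51, 16.1 and 9.72 CPM in Gli1+ replicates 1, 2 and 3 and at 4.29, 4.84 and 5.24 CPM in the Gli1- replicates. Its lowest Gli1+ library exceeded its highest Gli1- library, as in 4.04% of all genes tested. The log2FC was 1.21 (standard error 0.51, unadjusted p = 0.0456, edgeR). *Dnmt1*, that methylase, was at 52.2 ± 32.6 and 51.0 ± 12.8 CPM (SD, n = 3 each), with a log2FC of 0.03 (standard error 0.51).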
